A study of Mus musculus with 36 samples.

Results

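Binding of the histone variant H2A.Z was compared between fear conditioned and naive old mice over every peak of the deposited consensus table. The table holds 20213 peaks, and all 20213 entered the comparison. It rests on 6 immunoprecipitated libraries from old hippocampus, 3 naive and 3 conditioned, of the 36 libraries of the series. All mice were C57BL/6J, and the old mice were 15.5 months of age. Conditioned mice spent 5 min in training, explored for 2 min and then received 3 shocks of 0.5 mA lasting 2 s, given 1 min apart, and brains were frozen 30 min after training. Naive old mice had the same age and tissue, and the labels record no training for them. Young mice of 2.5 months, also 3 naive and 3 conditioned libraries, are set beside the old ones where the ages differ. The labels do not say that the 3 libraries of a group came from separate animals, and each holds whole hippocampus with all its cell types. In such bulk tissue, fewer cells of a type and less H2A.Z or RNA per cell cannot be told apart.

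H2A.Z replaces the canonical histone H2A in nucleosomes that flank transcription start sites and sit at enhancers, where it is placed by the SRCAP and p400 complexes and removed by INO80 and ANP32E. It is found at active promoters beside trimethylated lysine 4 of histone H3 (H3K4me3) and at Polycomb-repressed developmental genes beside H3K27me3. In the hippocampus, loss of H2A.Z from promoters after training has been linked to the expression of memory-related genes. A peak is a stretch of the genome where immunoprecipitated reads pile up. The level of a peak is the deposited log2 mean read concentration of a group. The fold is the deposited log2 fold, turned so that a negative value means lower in conditioned mice. A peak was counted as called where the authors' deposited FDR, a p-value adjusted over all peaks, was under 0.05. The table gives 1 value per group, so these values carry no SD.

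The promoters on which the results turn are shown first, as the 250 bases before the RefSeq start site on GRCm38.p6 (mm10). RefSeq promoter windows with a start site inside the peak were found for 8694 of 12097 genes with a promoter peak. Cry1 had the smallest FDR among clock genes and Tiparp had it in a list named later activity effectors. Zfp367 had it among zinc finger genes, and Egr2 had the lowest fold among the strongest promoter peaks of early activity genes. Fosb and Dusp1 were the genes whose RNA change passed the adjusted test, and Hist1h2ak had the smallest FDR among replication-dependent histone genes. Cry1 lies at chr10:85185055-85185304 on the minus strand, Tiparp at chr3:65528197-65528446 on the plus strand and Egr2 at chr10:67537619-67537868 on the plus strand. Fosb lies at chr7:19310046-19310295, Dusp1 at chr17:26508473-26508722, Hist1h2ak at chr13:21753913-21754162, and Zfp367 at chr13:64153200-64153449, all on the minus strand. Capitals mark CpG dinucleotides.
Cry1: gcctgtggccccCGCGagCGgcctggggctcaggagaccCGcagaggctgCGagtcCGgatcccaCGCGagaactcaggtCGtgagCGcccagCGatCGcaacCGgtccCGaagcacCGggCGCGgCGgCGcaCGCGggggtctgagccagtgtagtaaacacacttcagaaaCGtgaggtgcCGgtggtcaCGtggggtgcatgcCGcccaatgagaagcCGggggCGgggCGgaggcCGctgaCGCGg
Tiparp: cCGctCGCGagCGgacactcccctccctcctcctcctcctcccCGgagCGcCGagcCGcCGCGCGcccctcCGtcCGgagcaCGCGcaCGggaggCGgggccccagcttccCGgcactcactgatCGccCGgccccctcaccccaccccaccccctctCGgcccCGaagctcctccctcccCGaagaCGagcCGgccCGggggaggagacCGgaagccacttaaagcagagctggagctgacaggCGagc
Zfp367: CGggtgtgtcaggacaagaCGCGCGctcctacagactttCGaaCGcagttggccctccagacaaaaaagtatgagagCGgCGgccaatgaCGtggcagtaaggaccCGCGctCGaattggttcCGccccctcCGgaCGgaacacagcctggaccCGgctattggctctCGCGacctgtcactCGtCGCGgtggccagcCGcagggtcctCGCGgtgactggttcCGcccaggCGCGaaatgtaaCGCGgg
Egr2: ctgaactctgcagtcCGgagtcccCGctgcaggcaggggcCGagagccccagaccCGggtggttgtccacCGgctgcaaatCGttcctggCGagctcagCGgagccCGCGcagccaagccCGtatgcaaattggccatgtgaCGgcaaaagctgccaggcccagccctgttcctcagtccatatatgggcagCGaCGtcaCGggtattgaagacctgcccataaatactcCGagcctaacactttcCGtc
Fosb: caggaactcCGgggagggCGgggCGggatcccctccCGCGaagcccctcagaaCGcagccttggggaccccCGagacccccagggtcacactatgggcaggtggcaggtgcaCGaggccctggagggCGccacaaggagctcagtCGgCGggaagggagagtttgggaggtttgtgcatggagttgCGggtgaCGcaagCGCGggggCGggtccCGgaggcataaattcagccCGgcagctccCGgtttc
Dusp1: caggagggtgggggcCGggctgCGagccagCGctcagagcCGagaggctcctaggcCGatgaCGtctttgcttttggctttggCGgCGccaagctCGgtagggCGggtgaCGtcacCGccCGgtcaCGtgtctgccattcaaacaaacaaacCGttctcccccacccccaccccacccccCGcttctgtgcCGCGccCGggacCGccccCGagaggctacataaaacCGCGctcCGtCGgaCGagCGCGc
Hist1h2ak: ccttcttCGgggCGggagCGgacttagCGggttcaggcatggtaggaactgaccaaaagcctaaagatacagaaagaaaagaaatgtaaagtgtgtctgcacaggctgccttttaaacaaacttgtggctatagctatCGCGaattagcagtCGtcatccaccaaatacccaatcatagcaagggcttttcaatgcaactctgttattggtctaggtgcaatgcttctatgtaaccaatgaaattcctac

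The Cry1 promoter holds 31 CpG in these 250 bases and the Hist1h2ak promoter holds 7, and both had lower H2A.Z in conditioned mice. Over the matched promoters, those called held a median of 24 CpG and 67.6% G and C, against 18 CpG and 62.4% for all matched promoters. All 32851 windows of the reference table had medians of 6 CpG and 52.4%. Among matched promoters above the median peak level, the share called rose from 14.6% in the quintile of lowest G and C content to 37.8% in the quintile of highest. Their median level rose from 7.03 to 7.79 over the same quintiles. Their median fold, relative to the median peak, was -0.10 in the lowest quintile and -0.05 in the highest, so GC-rich promoters were called more often without falling further. Over these 6634 promoters the fold had a Spearman correlation of 0.09 with G and C content in old mice and 0.21 in young mice, across genes that share libraries and base composition. Motifs were searched on both strands. The cAMP response element TGACGTCA, a site of the activity-regulated factor CREB, was in 3.86% of called promoters, 2.81% of matched promoters and 1.55% of all windows. The GC box GGGCGG, which like TGACGTCA contains a CpG, was in 77.1%, 68.0% and 32.7% of the same sets. Promoters above the median level were also divided into quintiles of fold. From lowest to highest fold, the share with the CCAAT box CCAAT was 38.9%, 33.6%, 31.5%, 32.8% and 30.7%. The share with TGACGTCA was 3.32%, 3.01%, 3.70%, 2.94% and 2.26%, so it was highest in the middle quintile. The E2F-type motif TTTNGCGC, searched after the values of cell cycle genes were seen, was in 2.55% of called and 2.19% of matched promoters. Its share was 2.64% in the quintile of lowest fold and 1.81% in the quintile of highest, with 2.71% in the quintile beside the latter, so no order ran along the fold. Among the promoters printed, that of Dusp1 holds TGACGTCA and that of Zfp367 holds TTTNGCGC.

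H2A.Z was lower in conditioned than in naive old mice at most of its peaks. In the authors' deposited table the median fold was -0.93, a ratio of 0.524, and 17648 of 20213 folds (87.3%) were below 0. The middle 50% of folds ran from -1.24 to -0.54. Called peaks numbered 2158, which is 10.7% of those tested. Of these, 2150 were lower in conditioned mice (10.6% of all peaks) and 8 were higher (0.0396%). At an unadjusted deposited p under 0.05 there were 6039 lower and 40 higher peaks. Among lower calls the median fold was -1.25, with quartiles at -1.44 and -1.10. The least negative called fold was -0.81 and the most negative was -6.54.

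Most of the called loss lay close to the typical peak. Of the 2150 lower calls, 1598 (74.3%) had a fold within 0.5 of the median peak. Relative to that median, 2063 calls lay below and 95 above. Values are therefore given below as relative fold, the fold minus the median of -0.93, beside the fold itself. The size of the median shift depends on the scale: taken from the levels it was -1.15, a ratio of 0.451. Every old fold differs from the old level difference by a constant 0.22. Summed over all peaks on the linear scale, the conditioned level was 0.446 of the naive level. The sources used here do not give the scaling of the libraries, and a change in H2A.Z across the genome and a difference in that scaling cannot be told apart in this table. The peak caller found 10885 peaks in all 3 naive libraries and 9572 in all 3 conditioned libraries. These counts come from the same libraries, whose depth was not examined here, so they are no separate support for a loss. Of the 8757 peaks found in all 6 libraries, 1986 were called, and all of these were lower.

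**Figure D1:**
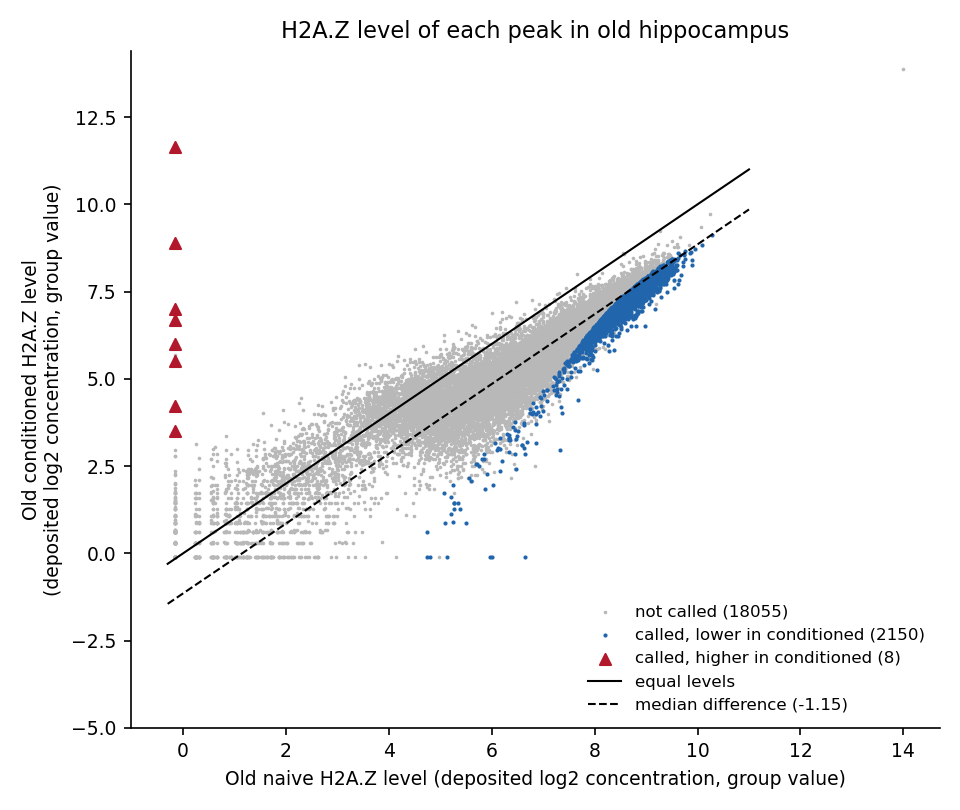
H2A.Z level of each of 20213 peaks in old naive (x axis) and old conditioned (y axis) hippocampus, both as deposited log2 concentrations, 1 value per group. The 2150 called lower peaks lie along the lower right edge of the cloud at high levels, and the 8 called higher peaks lie in 1 column at the lowest naive level listed; the dashed line is the median difference of -1.15.

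The peaks of highest level show the spread around the typical loss. Rn45s, the 45S ribosomal RNA precursor, had the highest level of all, 13.99 in naive and 13.88 in conditioned mice, and a fold of 0.11 with an FDR of 0.9996. It lies in a region of low mappability. Peaks in low-mappability regions near Zc3h7a and Pex2 had folds of -0.29 and -0.48. At the promoter of Foxo3, a forkhead transcription factor of stress resistance, the level went from 10.09 to 8.82, with a fold of -1.05 and an FDR of 0.0176. At the promoter of Cpeb2, a regulator of mRNA translation, it went from 10.29 to 9.13, with a fold of -0.94 and an FDR of 0.0421. These 5 peaks were chosen after their values were seen. Over all 610 peaks that overlap a low-mappability region the median fold was -0.85 and 6.89% were called, against -0.93 and 10.8% of the other 19603.

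Calls followed the level of the peak far more than the size of the fold. Peaks were ranked by their mean old level and divided into deciles, numbered from the lowest. The share called was 1.14% in decile 1, 0.841% in decile 2, 1.34% in decile 5, 6.19% in decile 7, 14.6% in decile 8, 30.4% in decile 9 and 47.6% in decile 10. From decile 4 to decile 10 the median fold stayed between -1.06 and -0.94. The least negative called fold went from -3.13 in decile 1 to -0.81 in decile 10, so a loss of typical size passed the FDR at strong peaks and not at weak ones. In decile 1 the median fold was 0.26, the value listed for a peak at the lowest level in both groups. Such peaks numbered 301, of which 266 were distal, and they carry no measured difference. A further limit is that 417 peaks were at the lowest listed level in naive mice and 479 in conditioned mice.

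**Figure D2:**
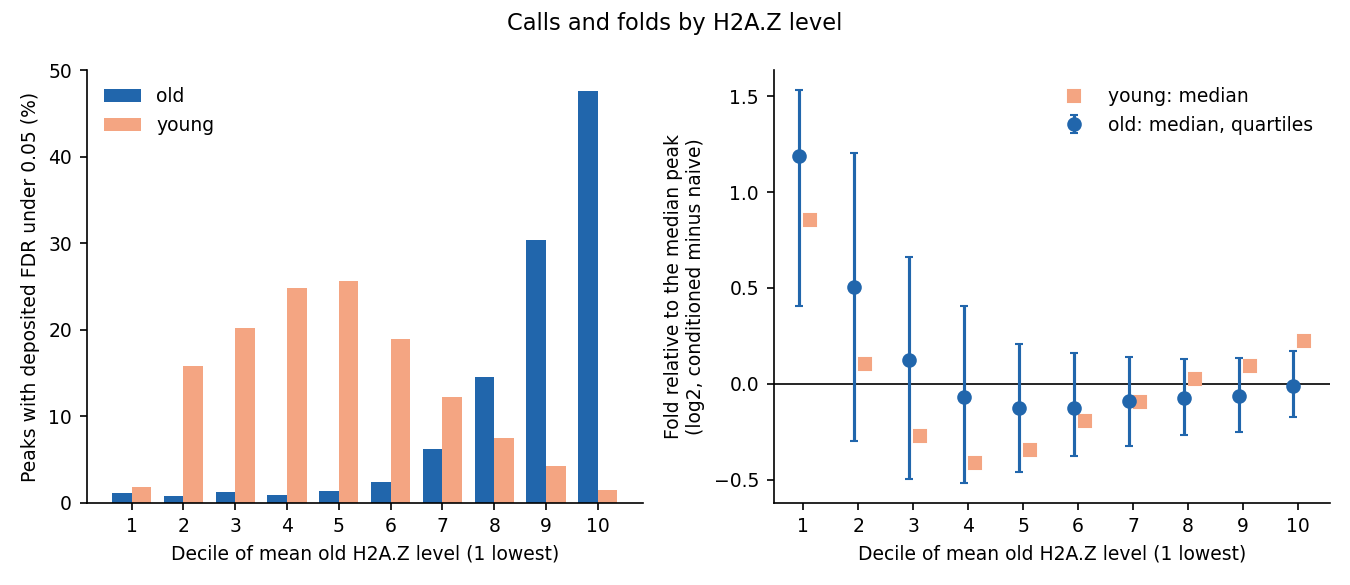
Left, percent of peaks with a deposited FDR under 0.05 by decile of mean old H2A.Z level; right, median fold relative to the median peak of that age, with quartiles for old mice. Bars for old mice reach 47.6% in the highest decile, where young mice have 1.48%, while the old median relative fold there is -0.01.

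Young mice lost H2A.Z after the same training, with calls on other peaks. The young median fold was -0.57, a ratio of 0.675, and 2682 peaks (13.3%) were called, 2660 lower and 22 higher. At the peaks named here young folds equal the level differences, without the constant 0.22 of the old folds. Old and young folds, here and below, are thus on unlike scales, and on the level scale the old median was -1.15. Relative folds do not depend on that constant. By deciles of old level, young calls were most frequent in decile 5, at 25.6%, and fewest in decile 10, at 1.48%. There the young relative fold was 0.22 and the old relative fold was -0.01. Peaks called at both ages numbered 166, which is 7.69% of the old calls and 6.19% of the young calls, below the backgrounds of 13.3% and 10.7%. The comparisons share no library of immunoprecipitated DNA, and the Spearman correlation of the folds at the different ages was 0.59 over 20213 peaks and 0.48 over the 10106 above the median level. The difference between ages was not tested, since the table holds no value per library.

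Promoters held most of the called loss. A peak within 1 kb of an annotated start site was taken as a promoter peak, and any other as distal. Of 12844 promoter peaks 1987 (15.5%) were called, and of 7369 distal peaks 171 (2.32%), so promoters made up 63.5% of peaks and 92.1% of calls. Peaks that overlap a start site were called in 16.8% of 11487 cases. Those from 1 to 1000 bp away were called in 3.83%, and the group farthest from any start site in 1.54%. The median level in naive mice was 7.65 at start sites and 6.11 from 1 to 1000 bp away, so distance and level moved together. The distal median fold was 0.47 above the promoter median over all peaks and 0.07 above it among peaks over the median level.

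Chromatin context was read from the authors' annotation of each peak with regions of 4 histone marks. H3K4me3 marks start sites, H3K27ac active elements, H3K4me1 enhancers and H3K27me3 Polycomb-repressed chromatin. Promoters with H3K4me3 and H3K27ac but no H3K27me3 were the commonest group, 6434 peaks, of which 18.1% were called at a median relative fold of -0.11. Promoters with H3K4me3 and H3K27me3, a pair known as bivalent, numbered 4127, with 16.4% called and -0.04. They were counted whether or not H3K27ac was also present, and they included the promoters of Foxo3, Fos and Arc. Promoters with H3K4me3 alone of these 3 marks numbered 1325 and had the lowest relative fold, -0.24, with 9.28% called at a lower naive level of 7.06. The 958 promoters without H3K4me3 had 0.19 and 2.30%.

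Distal peaks ranged more widely. The 2753 with H3K4me3 had a relative fold of -0.07, and 5.56% were called. The 450 with H3K4me1 and H3K27ac, the marks of active enhancers, had 0.26, and 4 were called. The 630 with H3K27me3 and no H3K4me3 or H3K27ac had 0.44, with 5 called, all higher. All 5 overlap low-mappability regions and were at the lowest listed level in naive mice. The 730 with H3K4me1 alone had 0.63, with 1 called. The 2789 with none of the 4 marks had a median relative fold of 1.19 at a naive level of 2.53. Of them 8 were called, 3 of these higher, again from the lowest listed naive level. That median of 1.19 is the value listed for peaks at the lowest level in both groups, which 260 of the 2789 were. Without peaks at the lowest listed level in either group, a setting chosen after seeing the data, it was 1.11. Above the median level it was 0.35 over 27 peaks. Among peaks above the median level the contexts drew together, from -0.15 at promoters with H3K4me3 alone to 0.47 at the 23 distal peaks with H3K4me1 alone. In that subset the share called was 21.5% at promoters with H3K4me3 and H3K27ac but no H3K27me3. It was 23.9% at promoters with H3K4me3 and H3K27me3 and 13.3% at distal H3K4me3 peaks. All promoters with H3K27ac in that subset, whatever their other marks, had 23.4% called. The active enhancer group went opposite ways in the ages relative to the median peak: 0.26 in old and -0.39 in young mice, with 4 called in old and 81 in young mice. Among its 36 peaks above the median level the values were 0.14 in both ages, and the difference was not tested.

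**Figure D3:**
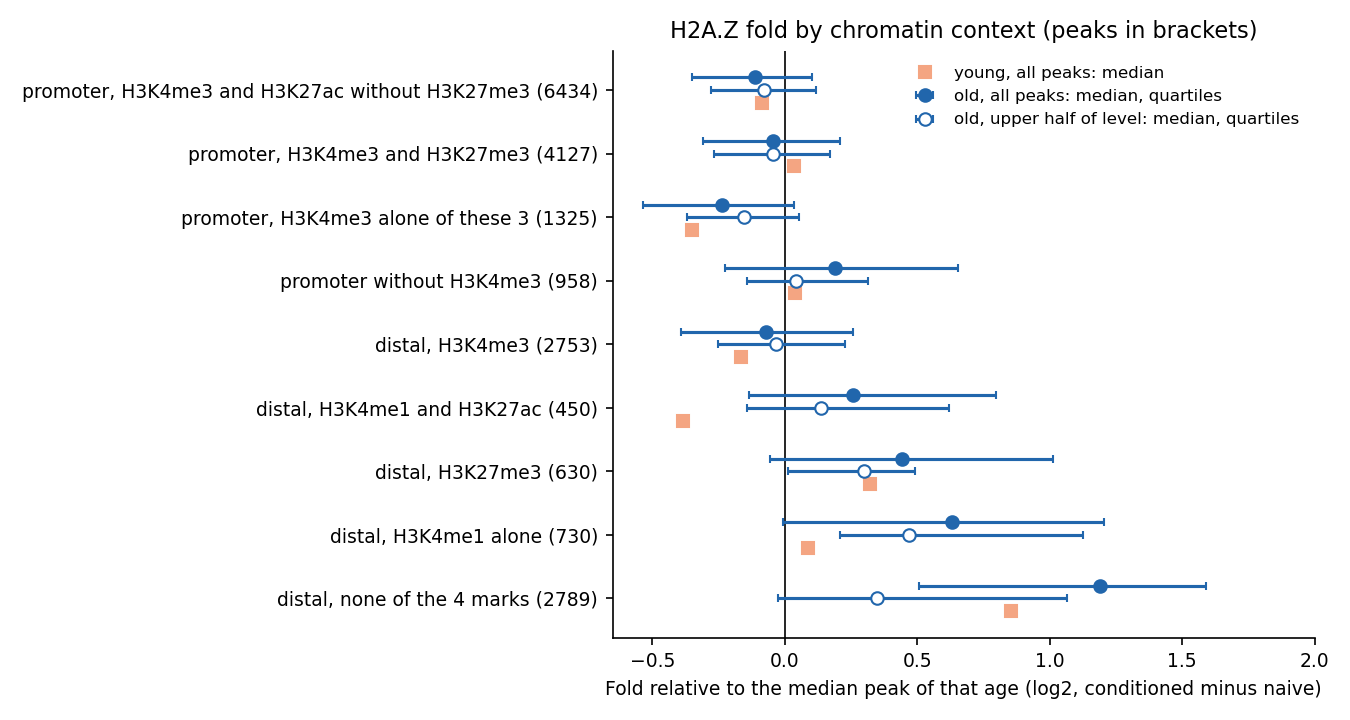
Median fold relative to the median peak of each age (x axis, log2) by chromatin context (y axis, peaks in brackets), with quartiles for old mice over all peaks and over peaks above the median level. Promoter contexts lie between -0.24 and 0.19 and distal peaks without marks at 1.19, and the open symbols, for strong peaks, mostly lie closer to 0. The value of 1.19 is that listed for peaks at the lowest level in both groups.

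Chromosomes differed in how often their peaks were called. The highest share was on chromosome 13, 15.6% of 737 peaks, and autosomes 7 and 11 had 6.87% and 6.83%. On the X chromosome 8 of 494 peaks (1.62%) were called at a median naive level of 6.08. Among X peaks above the median level 5.88% of 119 were called, and their relative fold was -0.01. None of the 24 peaks on the Y chromosome was called.

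The 8 peaks that were higher in conditioned mice shared an unusual pattern. All were distal, and each was called in 0 of 3 naive and 3 of 3 conditioned libraries and listed at the lowest level, -0.15, in naive mice. Their folds therefore have no measured naive level and are given only as deposited. The peak at chr2:98666233-98667347, nearest to Lrrc4c, a synaptic adhesion gene 1198577 bp away, reached 11.63 in conditioned mice. The Lrrc4c neighbours at chr2:98662211-98662979 and chr2:98664945-98665223 reached 8.88 and 6.99. The peak nearest to Chl1, a neural cell adhesion gene, reached 6.00. The 2 nearest to Mir101c on chromosome 9 reached 5.51 and 3.51. Of the 8 peaks, 7 overlap a low-mappability region, 5 overlap H3K27me3 and 3 overlap none of the 4 marks. In young mice all 8 also had a positive fold with the naive group at its lowest level, and 6 were called. Excluding low-mappability regions left 1 higher call, the peak on chromosome 14 nearest to a predicted gene, with a conditioned level of 4.24.

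The deepest losses among called promoter peaks came at weak peaks found only in naive libraries. Peaks within 1 kb of the start sites of Peli3, Stard13, H2-Ab1, Lrriq1, Dpp6, Lcorl and Smc1a were each called in 2 naive and 0 conditioned libraries. Peli3, an E3 ubiquitin ligase gene of innate immune signalling, went from 5.12 to the lowest listed level, so that its deposited fold of -5.01 is not a measured size (FDR 0.00747). Stard13, a GTPase-activating protein gene, went from 5.10 to 0.86 (fold -4.03, FDR 0.0309). H2-Ab1, which encodes a class II MHC chain, went from 5.39 to 1.26 (fold -3.91, FDR 0.0432). In young mice H2-Ab1 went from 5.31 to 0.07 (fold -5.24, FDR 3.28e-06). Dpp6, an auxiliary subunit of potassium channels, went from 6.47 to 2.42 (fold -3.84, FDR 0.0167), and in young mice from 6.07 to 2.52 (fold -3.55, FDR 0.00196). The cohesin gene Smc1a, on the X chromosome, had a fold of -3.63 in old and -4.14 in young mice. The eighth peak of this kind belongs to a predicted gene. At Peli3, Dpp6 and Lcorl these were not the strongest promoter peaks: those had folds of -0.48 (FDR 0.590), -0.71 (FDR 0.336) and -1.49 (FDR 0.00276).

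The called promoters of least negative fold were strong peaks found in all 6 libraries. Among them were those of Nudt19, Arid2, Hmga1, Chst2, Zbtb14, Syncrip and Fut8, with naive levels from 9.12 at Nudt19 to 9.62 at Fut8. Fut8, a fucosyltransferase of glycoprotein synthesis, went to 8.60, at 56.9% of its naive level on the fold scale (fold -0.81, FDR 0.04998). Its young fold was -0.38, with an FDR of 0.616. Just inside the threshold, Kdm2a, an H3K36 demethylase gene, had an FDR of 0.04998 and a fold of -0.90. Nenf, a neurotrophic factor gene, had a fold of -1.05 at an FDR of 0.049998. Just outside the threshold, Wwp2, a ubiquitin ligase gene, had 0.05004 and -1.29, and a distal peak nearest to Zfp800 had 0.05004 and -0.99. Peaks on either side thus overlapped in fold.

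Distal losses were fewest and included repeats. The lowest called distal folds were near Lars2, Pisd-ps1, Pisd-ps2 and Tm4sf5, each at the lowest listed level in conditioned mice. The first 3 overlap low-mappability regions, where reads may be shared between copies, and the one near Pisd-ps1 was nevertheless called in 2 conditioned libraries. The peak near Tm4sf5 carries H3K4me1 alone and went from 4.79 to the lowest listed level, with an FDR of 0.0124. Calls were mostly single: 2110 genes had 1 called peak nearest to them, 21 had 2 and 2 had 3. Ptch1, the Hedgehog receptor, had all 3 of its peaks called, with folds of -0.99 at the promoter and of -1.38 and -1.12 at distal H3K4me3 peaks. Chd7, a chromatin remodeller, had 2 of 7 called and Fgf9, a growth factor gene, 2 of 4.

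Gene lists were read at the strongest promoter peak of each gene. Over all 12097 genes with a promoter peak 1974 were called (16.3%), the median relative fold was -0.10, and 60.9% lay below the median peak. Early activity-regulated genes encode transcription factors and signalling proteins induced within minutes of neuronal activity. Of 37 listed, 36 had a promoter peak, 5 were called lower, 15 lay below the median peak, and the median relative fold was 0.07. The share called, 13.9%, was near the background.

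Egr2, a zinc finger factor, had the deepest called loss at the strongest promoter peaks of that list. Its level went from 7.40 in naive to 4.83 in conditioned mice, 19.5% of naive on the fold scale (fold -2.36, FDR 0.0159). In young mice the fold was -1.72, with an FDR of 0.130. Nr4a2, an orphan nuclear receptor, went from 9.05 to 7.15 (fold -1.68, FDR 0.0342), with a young fold of -1.64 and FDR of 0.00232. Sik1, a kinase that restrains CREB coactivators, went from 8.41 to 6.91 (fold -1.28, FDR 0.0200). Dusp5, a phosphatase of ERK, went from 8.74 to 7.49 (fold -1.03, FDR 0.0306). Klf10 went from 9.74 to 8.56 (fold -0.97, FDR 0.0206), a loss of typical size at a strong peak. Egr2, Nr4a2 and Sik1 each had a further promoter peak that was not called, with folds of -0.74 (FDR 0.561), -0.92 (FDR 0.0737) and -1.74 (FDR 0.240). Nr4a2 and Dusp5 were named after their values were seen. Of 51 distal peaks nearest to early genes 2 were called, at Apold1 (fold -1.29) and 25833 bp from Egr1 (fold -1.44), both with H3K4me3.

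The best known early genes did not pass the FDR at their strongest promoter peak in old mice. Fos went from 7.06 to 5.35 (fold -1.49, FDR 0.380), and in young mice from 6.90 to 3.41 (fold -3.49, FDR 1.95e-07). Arc, a synaptic protein gene, went from 7.40 to 6.57 (fold -0.62, FDR 0.410). Dusp1, a MAP kinase phosphatase, went from 8.53 to 7.47 (fold -0.84, FDR 0.0861), while its young fold was 0.39. Egr1 had a fold of -0.88 (FDR 0.0720), Junb of -0.51 (FDR 0.437), Npas4 of -0.75 (FDR 0.627), Nr4a1 of -1.13 (FDR 0.376) and Btg2 of -0.82 (FDR 0.455). Their FDR values do not show that these promoters kept their H2A.Z. Egr1, Junb and Nr4a1 each had a further promoter peak, also not called, with folds of -0.68, -0.90 and -1.62. Fosb had 2 promoter peaks. The peak over its start site went from 7.68 to 6.19 (fold -1.28, FDR 0.297). The peak of 907 bp at chr7:19308276-19309182, 863 bp from the start site and intronic, went from 6.20 to 2.65 (fold -3.33, FDR 0.0178) and in young mice had a fold of -2.78 (FDR 0.0202). The promoter peaks of early genes numbered 46, of which 6 were called.

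**Figure D4:**
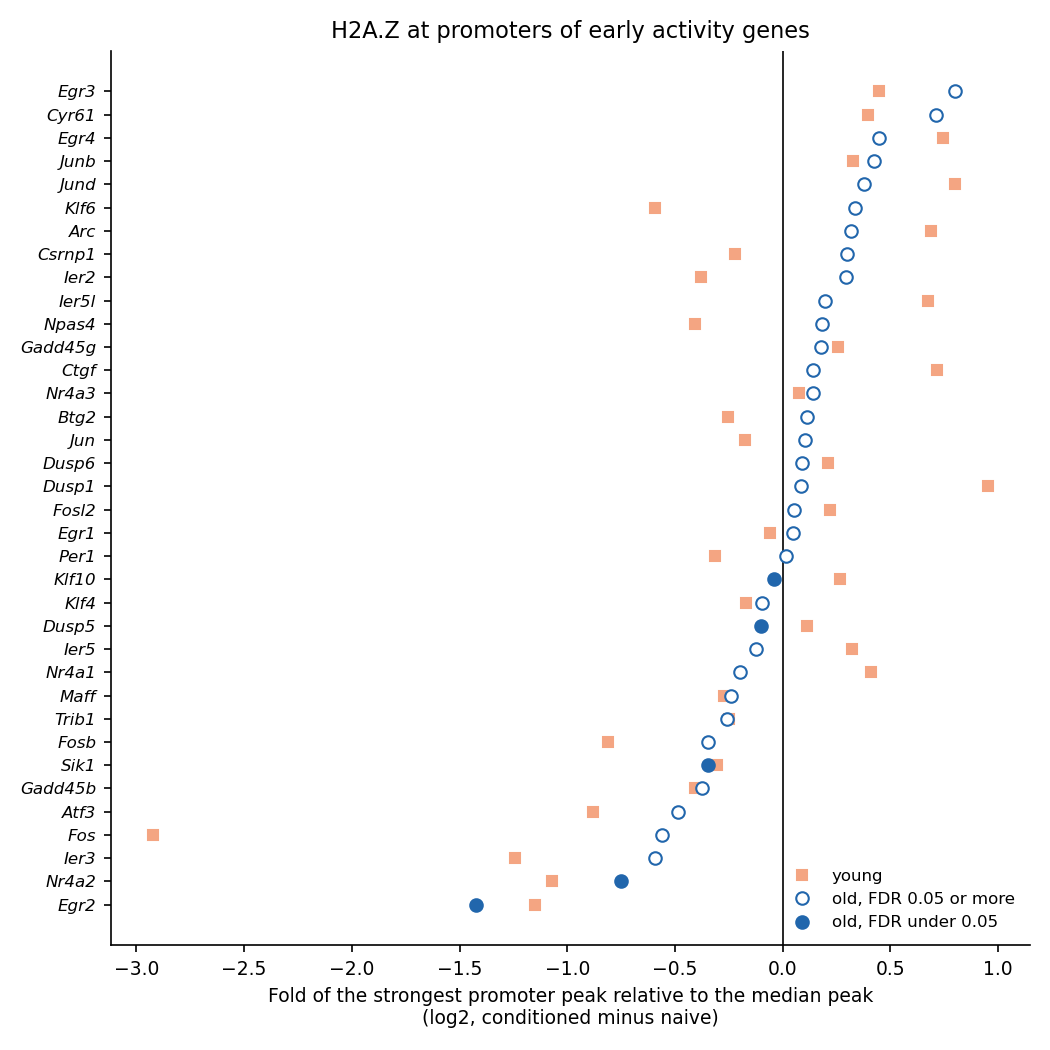
Fold of the strongest promoter peak of 36 early activity-regulated genes relative to the median peak of that age (x axis, log2), in old (circles, filled where the FDR was under 0.05) and young mice (squares). Filled circles run from Egr2 at -1.43 to Klf10 at -0.04, and the young value of Fos lies far to the left of its old value of -0.56.

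Later effector genes of activity had 5 of 20 promoters called and a median relative fold of -0.18. Tiparp, a poly-ADP-ribose polymerase, went from 9.55 to 7.82, at 35.1% of naive (fold -1.51, FDR 0.000457), against a young fold of -0.43 (FDR 0.551). Fbxo33 and Pim1, the latter a kinase gene, had folds of -1.14 and -1.40. Glucocorticoid-responsive genes had 2 of 16 called, Fkbp5, a cochaperone of the receptor, at -1.31 and Nfkbia, an inhibitor of NF-kB, at -1.13. Genes of CREB and MAPK signalling had 4 of 27 called, and 7 of 27 lay below the median peak. Rps6ka1, a CREB kinase, had -1.48 (FDR 0.00476), and the protein kinase A catalytic genes Prkacb and Prkaca had -1.25 (FDR 0.00677) and an FDR of 0.0338. Memory-related protein phosphatases had 1 of 13 called (7.69%), Ppp3cc, a calcineurin gene, at -1.03. Of the 13, 4 lay below the median peak, and the median relative fold was 0.08.

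Histone and DNA modifiers had 8 of 29 promoters called (27.6%), while 15 of 29 (51.7%) lay below the median peak and the median relative fold was -0.02. Among them were Ezh2, the H3K27 methyltransferase, from 9.01 to 7.26 (fold -1.53, FDR 0.00152), and Eed, its Polycomb partner, from 8.43 to 6.63 (fold -1.59, FDR 0.00951). Ehmt1, an H3K9 methyltransferase, had -1.31 (FDR 0.0112). H2A.Z genes and their machinery had 2 of 18 called (11.1%), 12 below the median peak and a median relative fold of -0.14. They were Anp32e, the chaperone that removes H2A.Z, from 8.24 to 6.61 (fold -1.41, FDR 0.0194), and Yeats4 (fold -1.02, FDR 0.0405). H2afz, the main H2A.Z gene, went from 8.85 to 7.43 (fold -1.21, FDR 0.0509), and H2afv, which encodes the other H2A.Z protein, had -1.22 (FDR 0.104).

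Replication-dependent histone genes, which supply canonical histones in S phase, had 43 of 50 promoters below the median peak and a median relative fold of -0.55, while 3 were called at a median level of 5.37. Hist1h2ak went from 7.95 to 5.68 (fold -2.05, FDR 0.00747), Hist1h3g had -2.96 and Hist1h2ag -1.87, all on chromosome 13. Near-identical copies in these clusters may share reads. Genes of interferon and MHC had 0 of 10 called and 9 below the median peak, at a median relative fold of -0.37 (H2-Ab1 is not on that list). Zinc finger genes had 23 of 247 called, with Zfp367 at -1.80 (FDR 0.000457), Zfp800 at -1.34 and Zfp131 at -1.17.

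Clock genes had 4 of 18 called. Cry1, a repressor of the clock, went from 9.61 to 7.72, at 31.2% of naive (fold -1.68, FDR 5.47e-05), against a young fold of -1.02 (FDR 0.162). Nr1d2 had -1.22 and Per2 -1.46. Neurogenesis genes also had 4 of 18 called, with Sox4 at -1.39, Stmn1, a microtubule gene, at -1.61 and Sox11 at -1.17. Developmental transcription factors and signals, mostly bivalent in brain, went the other way relative to the median peak: 1 of 83 was called (Foxd1, -1.24), 29 of 83 lay below the median peak, and the median relative fold was 0.18 at a level of 5.62.

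Genes of DNA replication stood out among the promoters with the smallest p, and were listed only after those values were seen, so that their counts describe and support nothing. The smallest FDR of any promoter was at Ung, a uracil-DNA glycosylase gene, where the level went from 8.98 to 6.50, at 20.7% of naive (fold -2.27, FDR 7.52e-07). Gmnn, which encodes the replication licensing inhibitor geminin, went from 8.38 to 5.83 (fold -2.34, FDR 0.000294). Ccne2, a cyclin of S phase entry, went from 9.54 to 7.61 (fold -1.71, FDR 5.33e-05). Mcph1, a gene of chromosome condensation that is not on the list, went from 8.80 to 6.51 (fold -2.08, FDR 5.33e-05). Of 64 genes of DNA replication and S phase, 54 had a promoter peak, 17 were called (31.5%) and 51 lay below the median peak, at a median relative fold of -0.65. The 3 above it were Pold2, Orc6 and Orc4. Among the 36 above the median level, 15 were called (41.7%) and the relative fold was -0.48, beside 21.7% and -0.08 for all such promoters.

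Members of that list had many roles in replication. The helicase genes Mcm2 and Mcm5 had folds of -3.26 and -2.64, the polymerase gene Pole -2.18, the kinase gene Dbf4 -1.76 and the histone chaperone gene Chaf1a -2.10. The transcription factor genes E2f1, E2f7 and E2f3 had -1.95, -1.87 and -1.23, and the cyclin genes Ccne1 and Ccna2 -1.70 and -1.62. All of these were called. Genes of mitosis, listed at the same time, had 23 of 23 promoters below the median peak at a relative fold of -0.78 and 2 called, Ttk at -1.60 and Cenpa at -2.25, from a naive level of 6.94. Young mice gave relative folds of -0.63 for the replication list, with 20 called, and of -0.98 for the mitosis list, with 13 called. The RNA of these genes had no common direction: 21 of 47 replication genes tested were higher in conditioned libraries, at a median log2 change of -0.02. The replication list has a lower relative fold than the quintile of genes with the lowest RNA level, -0.21, whose part in its value was not tested.

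Synapse, cell type and other lists are set beside the 16.3% called over all genes with a promoter peak. Apart from the heat shock, astrocyte and microglia lists, they had median levels below the 6.99 of all such genes, and calls were rarer at low levels. Glutamate receptor and scaffold genes had 2 of 26 called (7.69%), Dlg1 at -1.08 and Grin2d at -1.53. GABA receptor and interneuron genes had 2 of 19 (10.5%), Gabra5 at -1.10 and Gabra2 at -1.17. Potassium channels had 6 of 67 (8.96%), with Kcnq5 at -1.38, and heat shock genes 2 of 14 (14.3%). Cytosolic ribosomal protein genes had 5 of 68 (7.35%), with Rpl34 at -1.60. Oxidative phosphorylation genes had 3 of 61 (4.92%), with Ndufa4 at -1.49. Pyramidal cell genes had 2 of 10 (20%), Pou3f1 and Elavl4. The oligodendrocyte (8 promoters), astrocyte (7), microglia (1), endothelial (5), choroid plexus and ependyma (6), dentate granule cell (6), forebrain neuron (9), clustered protocadherin (11) and olfactory receptor (2) lists had 0 called. At an FDR that depends on level, 0 calls in lists this small do not show an unchanged promoter.

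RNA was sequenced from other old libraries of the same design, 3 naive and 3 conditioned, with 10892540 to 12857196 counts each. In edgeR's quasi-likelihood test with Benjamini-Hochberg adjustment, 2 of 14405 genes changed (0.0139%), both higher, and without adjustment 500 genes with higher and 531 with lower RNA had p under 0.05. Fosb, a subunit of the AP-1 factor, had 8.99, 7.24 and 7.62 CPM (counts scaled to library size) in naive and 16.6, 17.6 and 15.8 in conditioned libraries. The groups did not overlap, and the log2 change was 1.06 ± 0.14 (SE, n = 3 and 3, edgeR adjusted p = 0.0115). Dusp1 had 7.89, 10.3 and 7.98 CPM in naive and 20.2, 17.3 and 16.5 in conditioned libraries. Its groups did not overlap either (log2 change 1.05 ± 0.14, edgeR adjusted p = 0.0115). DESeq2 called 9 genes, and edgeR called 9 without a filter on low counts and 8 with the old libraries alone. Leaving out single libraries left 0 or 1 call, and the Fosb call was lost in each case, with edgeR adjusted p from 0.0536 to 0.134. The Dusp1 call was lost without conditioned libraries 61 or 63 or naive libraries 67 or 71, with edgeR adjusted p from 0.0853 to 0.117. At both genes H2A.Z had an FDR above 0.05 at the strongest promoter peak, and at Fosb the intronic peak was called lower.

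Other early genes had higher RNA in conditioned libraries without passing the adjustment. Fos had 5.76, 4.22 and 2.87 CPM in naive and 18.4, 20.9 and 15.7 in conditioned libraries, with no overlap (log2 change 2.08, edgeR adjusted p = 0.112). Arc had 93.1, 62.3 and 60.0 against 178, 176 and 134 CPM (1.18, edgeR adjusted p = 0.309). Egr2 had 2.60, 1.65 and 0.359 against 6.54, 6.82 and 5.34 CPM (1.98, edgeR adjusted p = 0.690). Sik1 had 12.7, 13.1 and 10.7 against 24.9, 18.1 and 19.99 CPM (0.79, edgeR adjusted p = 0.105). Of 35 early genes tested, 33 had a positive log2 change, at a median of 0.52, beside 7117 of all 14405 genes. The list named later effectors had 14 of 25 positive, at a median of 0.02. Cry1 and H2afz, with H2A.Z folds of -1.68 and -1.21, had RNA log2 changes of 0.03 and -0.08.

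Some lists of cell type markers did not overlap between the groups, though the gaps between the nearest libraries were narrow. Summed over all 14 choroid plexus and ependyma genes, each of which was measured, RNA was 636, 1974 and 201 CPM in naive libraries. In conditioned libraries it was 99.9, 94.2 and 187 CPM. The width of the naive range rested largely on 1 library, though the 636 CPM of another also lay far above all conditioned libraries. Of these 14 genes 0 had a positive log2 change, at a median of -1.99, beside 7117 of all 14405 genes. Oligodendrocyte markers (16 of 16) summed to 2991 to 3272 in naive and 2696 to 2986 CPM in conditioned libraries. Of the 16, 1 had a positive log2 change, at a median of -0.10. The part of these lists in the RNA and H2A.Z results was not tested. At the 6 choroid plexus and ependyma promoters with an H2A.Z peak, the median relative fold was 0.19 and 0 were called. The 6 neuronal markers used as a check of the tissue summed to 3798 to 4051 CPM in naive and 4186 to 4199 CPM in conditioned libraries. The 12 genes of the forebrain neuron list overlapped between the groups, at 13217 to 13805 and 13049 to 13880 CPM. The astrocyte, microglia and endothelial lists overlapped as well.

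Loss of H2A.Z at a promoter showed little relation to the change of its RNA across genes. Over 11021 genes with a promoter peak and tested RNA, fold and RNA change had a Spearman correlation of 0.03, and over the 1902 with a called promoter of -0.01. In the quintile of genes with the deepest loss, at a median fold of -1.59, RNA changes were positive for 49.98%. In the quintile with the least loss, at -0.58, they were positive for 55.3%. Among 411 genes with higher RNA and p under 0.05 before adjustment the H2A.Z promoter was called in 13.1%, and among 377 with lower RNA in 18.8%. These correlations run over genes that share libraries, and genes are not replicates.

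The level of expression, in contrast, was ordered along the fold. By quintiles of RNA level, from lowest to highest, the median relative fold of the promoter was -0.21, -0.19, -0.13, -0.07 and 0.05. Promoters of the most expressed genes thus lost less than the median peak. Fold and mean log2 CPM had a Spearman correlation of 0.25 over 11021 genes and 0.29 over the 8442 above the median peak level. The share called was 12.6%, 17.3%, 20.3%, 21.2% and 15.0% over the same quintiles, while the naive level was 7.10, 7.58, 7.78, 7.95 and 7.94. In young mice the relative folds were -0.26, -0.19, -0.07, 0.04 and 0.13. Base content was read in a smaller set, 6451 genes with a matched promoter window, a peak above the median level and tested RNA. Expression quintiles were cut anew in that set. Within its quintile of highest expression the median was 0.04 at promoters of low, 0.05 at those of middle and 0.08 at those of high G and C content. Within the low content group it ran from -0.20 to 0.04 over the expression quintiles, so in this set the order by expression was wider than that by base content.

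**Figure D5:**
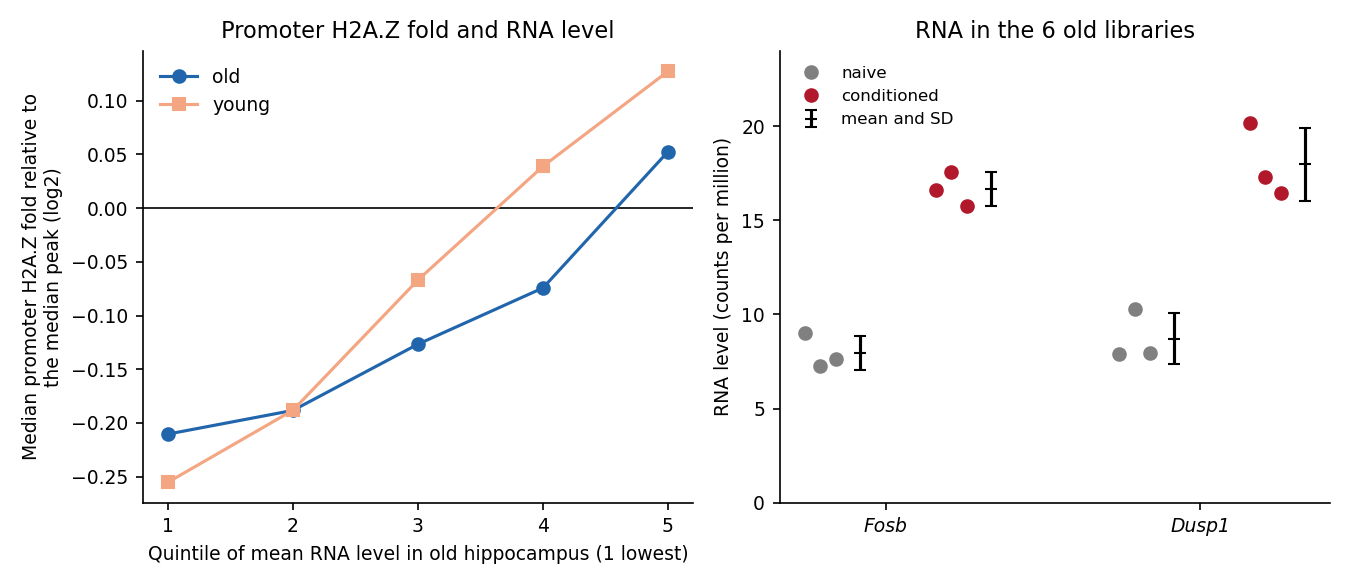
Left, median promoter H2A.Z fold relative to the median peak (log2) by quintile of mean RNA level in old hippocampus, for old and young mice; right, RNA of Fosb and Dusp1 in CPM in each of the 6 old libraries with mean and SD. The old line runs from -0.21 to 0.05, and the conditioned libraries of both genes lie above all naive libraries.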

How the data were processed

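Groups were taken from the labels, and the 12 input libraries were not analysed here. The H2A.Z file, per its headers, holds mm10 consensus peaks with log2 folds and log2 concentrations by group, computed by the authors. Its p-values and FDR are also the authors' own. Further deposited columns hold, for each group, how many libraries had the peak, and the positions of the nearest genes and histone mark regions. The RNA files hold read counts per gene symbol as the authors deposited them, not normalized. The submitters' processing notes name edgeR 3.8.6, R 3.1.0 and DiffBind 1.12.2, the aligners TopHat and Bowtie2 2.2.1, MACS2 2.0.10, HTSeq 0.6.1p2, cutadapt, Trim Galore 0.4 and FastQC, with builds mm9 and mm10. Library scaling, antibody and strandedness: not given in the sources used here.

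No test of H2A.Z was made, since the table holds group values only. The letter T in group columns was taken to mean conditioned, because N marks naive and no other group exists; titles write CS. A mark was taken as present where its region overlapped the peak, because the distances in the table run between edges. The strongest peak within 1 kb of a start site stood for a gene, at its mean old level. RNA counts were fitted in R 4.3.3 with edgeR 4.0.16 (TMM, filterByExpr, 4 groups), tested first on simulated data, with DESeq2 1.42.0 as an alternative. CPM values are scaled by TMM. The p-values measure the spread between libraries, which may be technical. Python 3.11.15 was used with pandas 2.3.3.

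The peaks, gene lists and tests were chosen with earlier results of these data known. Named genes are the 8 lowest and 8 highest called promoters and 4 distal peaks each way that were found in at least 2 libraries of a group, the 5 genes with most called peaks, 12 fixed early and H2A.Z genes, up to 3 members of each of 29 lists by smallest p, and genes with changed RNA. A gene that the rule names is not reported here. Others, and the replication and mitosis lists and the E2F motif, were chosen after values were seen.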

Additional observations from a re-analysis of the deposited data

How the results depend on the processing

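The count of called peaks depends on the threshold: 3935 at an FDR of 0.1 and 357 at 0.01, against 2158, while recomputed adjustment, a minimum distance from the median peak, peaks found in at least 2 libraries of both old groups and exclusion of low-mappability regions (an alternative chosen after seeing the data) gave 1501 to 2158. Higher calls went from 8 to 95 relative to the median peak, 19 at an FDR of 0.1, 4 at 0.01, 0 among peaks found in at least 2 libraries of both groups and 1 without low-mappability regions. The distal minus promoter difference in median fold, 0.47, was 0.20 among peaks found in at least 2 libraries of both groups, 0.068 above the median level and 0.41 without peaks at the lowest listed level, the last chosen after seeing the data. Over peaks found in at least 2 libraries of all 4 groups the median fold was -0.99 in old and -0.55 in young mice. RNA calls numbered 2 with upper-quartile normalization, 9 without a filter on low counts, 8 with the 6 old libraries alone, 9 with DESeq2, and 0 to 1 in edgeR when single libraries were left out, with 291 to 548 genes higher and 270 to 637 lower at p under 0.05 before adjustment. The correlation of fold and RNA change was -0.0101 over called promoters and ran from -0.0141 to 0.0519 when single libraries were left out. The cause of these shifts was not tested, except that subsets hold fewer peaks or libraries. Of 94 values of single contexts and genes under other settings, 64 stayed within the limits set for them and 20 moved beyond these. A further 10 kept their direction but lost an edgeR adjusted p under 0.05, and 0 turned their direction, though counts among them could not turn. Of 45 alternatives for the main results, 22 stayed and 23 moved, and the correlation of fold and RNA change crossed 0. No paired analysis was possible because no title number recurs across the groups compared (in the chromatin libraries a number joins an input to its own immunoprecipitate) and the peak table holds group values only.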
